A study of Mus musculus with 6 samples.

Results

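The cell cycle and DNA replication genes described here are a list of 49 cyclins, cyclin-dependent kinases and their inhibitors, replication factors and mitosis genes. The genes were listed by name, with no signal or ratio in the rule, but the list was drawn up with earlier results of these data known. Where several probe sets named a gene alone, the brightest by mean log2 signal over the 6 arrays was used. A probe set of this kind was found for 48 of the 49 genes, of 18194 genes on the arrays. The gene without one, Ccnb1 (cyclin B1), was not analysed here.

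RNA was taken from splenic CD4 T cells of C57BL/6 mice that had been cultured to become Th2 cells, the helper T cells that make IL-4, IL-5 and IL-13. The study lowered the transcription factor GATA3 by siRNA in effector Th2 cells (Th2-1st) and in fully developed Th2 cells (Th2-4th). Th2-1st cells came from 5 days of culture with 25 U/ml IL-2 and 100 U/ml IL-4, with anti-TCR and anti-CD28 mAb for the opening days. Th2-4th cells had gone on through further cycles. Each cycle had 2 days without added cytokines and then 5 days with anti-TCR mAb, IL-2 and anti-IL-4 mAb. The Th2-4th cells thus differ from Th2-1st cells in age, in the number of stimulations and in the blocking of IL-4. Anti-CD28 mAb is not named for the further cycles, so its use may differ as well. Each culture gave 3 arrays: cells with GATA3 siRNA restimulated for 4 h on immobilized anti-TCR mAb, cells with control siRNA after the same restimulation, and cells with control siRNA left unstimulated. The siRNA had been brought in by electroporation 24 h before the restimulation. Each of the 6 conditions is 1 array, so no condition has a replicate and a ratio of 2 arrays has no test. A difference shared by several array pairs was tested with limma in 1 additive model of culture and treatment over the 6 arrays, which leaves 2 residual degrees of freedom. Nothing says that the arrays of a culture came from separate cultures, so the error of this fit is the spread of a difference from pair to pair and not that of repeated cultures.

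A cell enters the cycle when D-type and E-type cyclins switch on their kinases, which inactivate the retinoblastoma proteins and free E2F factors to turn on the genes of DNA synthesis. Origins of replication are loaded with the MCM helicase in G1 and fired in S phase, and cyclin A, cyclin B and Cdk1 with the Aurora and Polo kinases then carry the cell through G2 and mitosis. T cells divide fast for some days after their receptor is engaged and slow again when the stimulus is gone, with the CDK inhibitors of the Cip/Kip and INK4 families as brakes.

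The labels were checked on the targeted gene and on markers. Gata3 gave a signal of 2853 with GATA3 siRNA, 9261 after anti-TCR and 4846 unstimulated in Th2-4th cells, against 1798, 4883 and 3312 on the matching Th2-1st arrays. Of 11 T cell identity genes 10 were measured, and all 10 were above the array median on all 6 arrays. Of 20 markers of CD8 T, B, myeloid, NK and erythroid cells 16 were measured, with 4 to 6 of them above the array median and a summed signal of 865 to 1208 over the arrays. All 48 cell cycle genes were above the array median on all 6 arrays, which lay between 61.8 and 74.2. The signals are those of bulk RNA, in which fewer dividing cells and less of an RNA in each cell cannot be told apart.

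Most of the cell cycle genes were lower in Th2-4th than in Th2-1st cells, whether the cells had been restimulated or not. In the unstimulated pair of control arrays 35 of the 48 genes were under 0.5-fold in Th2-4th cells, the lower threshold used for a change, where 12.3% of all genes were, and 3 were over 2-fold, where 19.5% of all genes were. In the anti-TCR pair, which shares no array with the unstimulated pair, 38 genes were under 0.5-fold (12.7% of all genes) and 1 was over 2-fold (17.2%). With the probe set whose ratio was farthest from 0 taken for each gene, 5 were over 2-fold unstimulated and 3 after anti-TCR. No share of all genes is given for this choice. With the brightest probe sets, the same 34 genes were under 0.5-fold in both pairs, against 4.08% of all genes. The median log2 ratio of Th2-4th over Th2-1st was -1.56 unstimulated and -1.58 after anti-TCR, against 0.17 and 0.10 over all genes. The robust SD of the log2 ratio among the 400 genes nearest in signal holds real changes and is no replicate error. It had a median of 0.63 and 0.54 at these genes, and 34 and 37 of the 48 ratios were past 2 such SDs. For counts past 2 such SDs, here and below, no share of all genes is given, so they show no excess over other genes. For 39 genes all 3 Th2-4th signals lay below all 3 Th2-1st signals, which held for 8.84% of all genes, and for 1 gene, Cdkn1a, they lay above (10.4%). Age, stimulation number, IL-4 blocking and the use of anti-CD28 mAb cannot be told apart in this comparison.

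In the additive fit, with the 3 Th2-4th arrays paired by treatment with the 3 Th2-1st arrays, 41 of the 48 genes were lower in Th2-4th cells at an adjusted p under 0.05, as 7.02% of all genes were, and 3 were higher, as 7.58% of all genes were. The p-values were from limma and adjusted by Benjamini-Hochberg over all 18194 genes. The 3 higher genes were Cdkn1a, with a log2 difference of 1.45 ± 0.14 (SE, adjusted p = 0.000898), Cdkn1b (1.09 ± 0.24, adjusted p = 0.0247) and Ccnd2 (0.83 ± 0.21, adjusted p = 0.0416). Gins1 had the smallest adjusted p of the lower ones, at -2.26 ± 0.13 (adjusted p = 0.000295). The genes that did not pass were Ccnd1, Ccnd3, Cdk6 and E2f1. The calls hung on letting the variance depend on the signal: with 1 common prior variance no gene passed, neither member nor other (smallest adjusted p of the 48 genes 0.124), although 41 of the 48 were lower and 2 higher at an unadjusted p under 0.05. Without the GATA3 siRNA pair Cdkn1a alone was higher, with 38 genes lower.

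**Figure D1:**
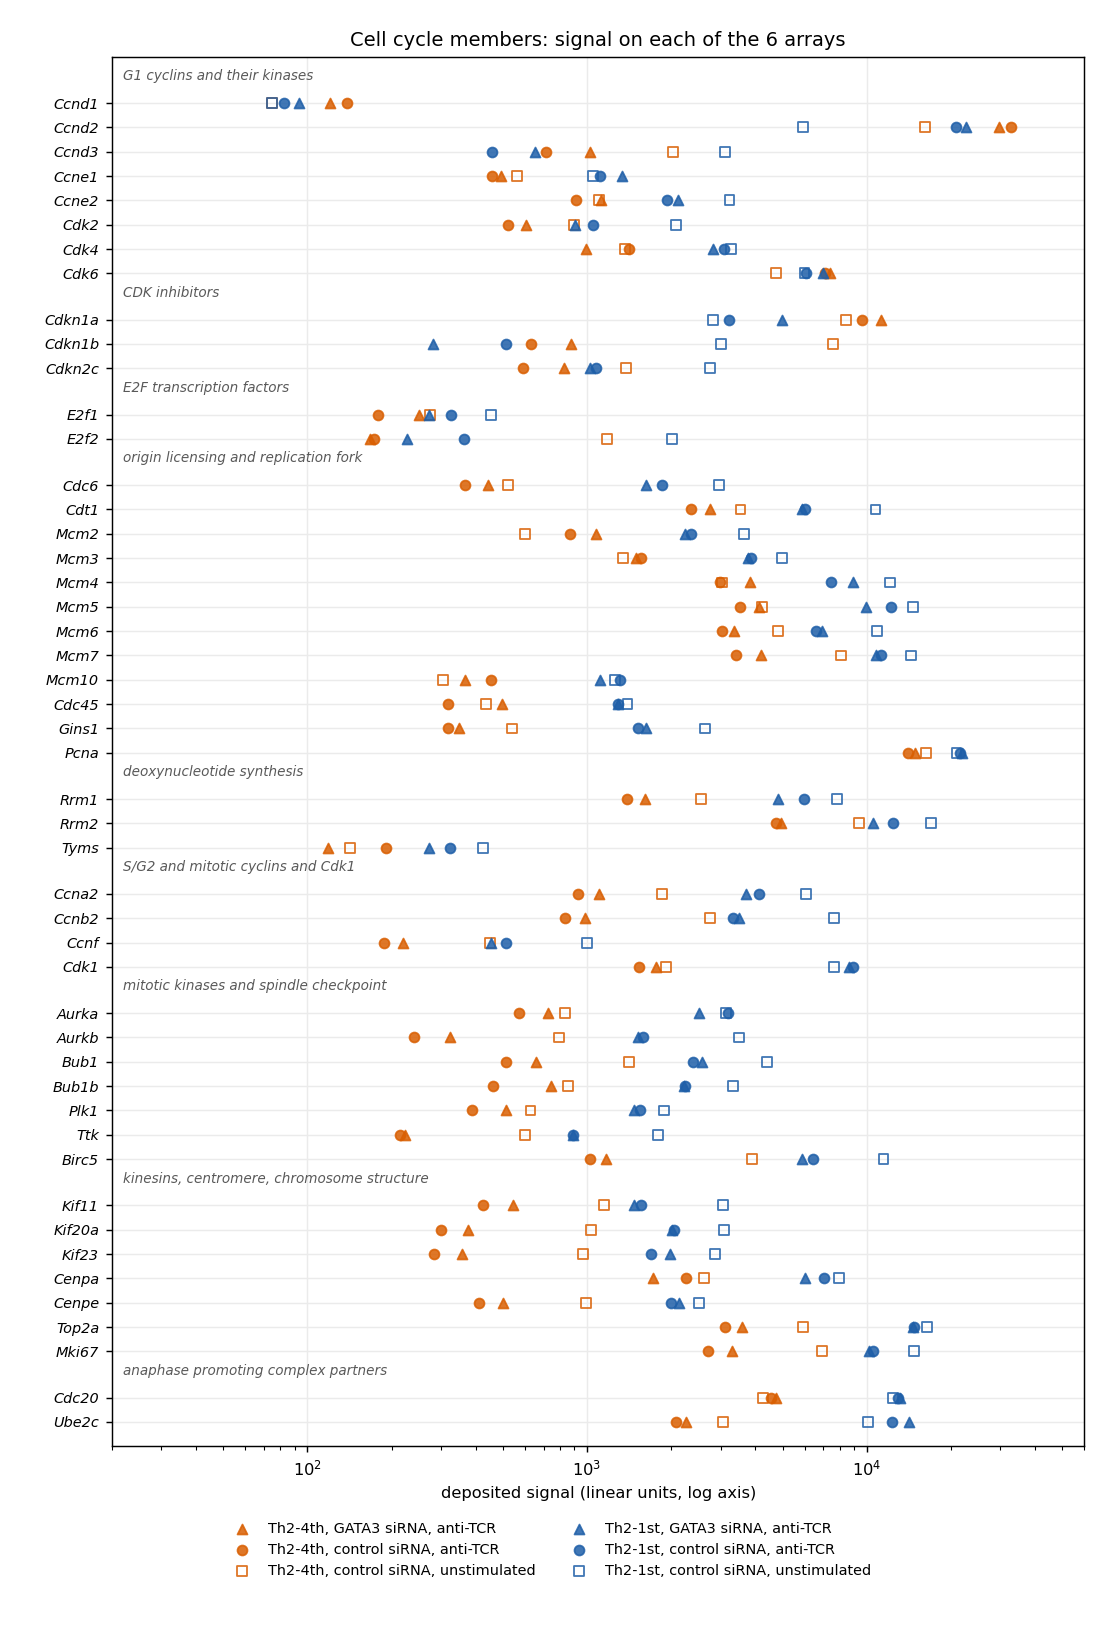
Signal of the 48 measured cell cycle genes on each of the 6 arrays (linear signal on a log axis), in groups by role, with Th2-4th arrays in orange and Th2-1st arrays in blue. Triangles are GATA3 siRNA arrays, circles control siRNA arrays after anti-TCR and open squares unstimulated control arrays; each point is 1 array. The orange points lie left of the blue ones for 39 genes, and right of them for Cdkn1a.

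The replication genes were lower as a group. Of 12 genes of origin licensing and the replication fork, 10 were under 0.5-fold unstimulated and 11 after anti-TCR, and the others, Mcm7 in the unstimulated pair and Pcna in both, were also below 1-fold. Signals are given in the order GATA3 siRNA, anti-TCR and unstimulated in this and the next paragraphs. Cdc6, which loads the MCM helicase onto origins, read 441, 366 and 521 in Th2-4th cells, against 1628, 1849 and 2972 in Th2-1st cells. Cdt1, its partner in loading, read 2753, 2349.7 and 3537 in Th2-4th cells, against 5865, 6014 and 10739.6 in Th2-1st cells. Gins1, a subunit of the GINS complex that activates the helicase, read 348, 318 and 539 in Th2-4th cells, against 1630.0, 1522 and 2638 in Th2-1st cells. On all 3 of these genes the highest Th2-4th signal, that of the unstimulated array, was below the lowest Th2-1st signal, and the log2 ratio of the unstimulated pair was -2.51, -1.60 and -2.29, with a spread of 0.64, 0.61 and 0.62 among genes of like signal.

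The 6 subunits of the MCM2-7 helicase, which unwinds DNA at the fork, had every Th2-4th signal below every Th2-1st signal. Mcm2 read 1079.7, 868 and 602 in Th2-4th cells, against 2249, 2353 and 3635 in Th2-1st cells. Mcm3 read 1491, 1562 and 1346 in Th2-4th cells, against 3760.4, 3871 and 4958 in Th2-1st cells. Mcm4 read 3839, 2977 and 3027 in Th2-4th cells, against 8953, 7456 and 12075 in Th2-1st cells. With the brightest probe sets the cultures lay farther apart in the unstimulated than in the anti-TCR pair for these 3 subunits. Their log2 ratios were -2.59, -1.88 and -1.996 unstimulated and -1.44, -1.31 and -1.32 after anti-TCR. The other probe sets of Mcm2 (-1.73 and -1.60) and Mcm4 (-1.461 and -1.460), also above the array median on all arrays, differed less between the pairs. An Mcm3 probe set lay farther apart after anti-TCR (-1.53 and -1.72), and the others unstimulated. Mcm5 read 4110.4, 3519 and 4231 in Th2-4th cells, against 9918, 12254 and 14592 in Th2-1st cells. Mcm6 read 3346, 3029.7 and 4819 in Th2-4th cells, against 6890.0, 6559 and 10842 in Th2-1st cells. Mcm7 read 4199, 3411 and 8103 in Th2-4th cells, against 10822, 11205 and 14377 in Th2-1st cells. With the brightest probe sets Mcm5 and Mcm6 differed about as much in both pairs (-1.79 and -1.80, and -1.17 and -1.11). The brightest Mcm7 probe set was past 2-fold only after anti-TCR (-0.83 and -1.72). The other Mcm7 probe sets were past 2-fold in both pairs, at -1.48, -1.55 and -1.74 unstimulated. Mcm10, which links the helicase to DNA polymerase, read 367, 453 and 305 in Th2-4th cells, against 1109, 1307 and 1255 in Th2-1st cells. A dimmer Mcm10 probe set, below the array median, gave a log2 ratio of 2.47 in the unstimulated pair, against -2.04 for the brightest. Cdc45, a part of the active helicase, read 496, 318 and 434 in Th2-4th cells, against 1291, 1285 and 1395 in Th2-1st cells. Pcna, the sliding clamp of the polymerases, read 14879.5, 14044 and 16240.1 in Th2-4th cells, against 21906, 21603 and 20928 in Th2-1st cells. Pcna was the replication gene that differed least, at log2 ratios of -0.37 unstimulated and -0.62 after anti-TCR, although its Th2-4th signals too were all below its Th2-1st signals.

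The 3 genes of deoxynucleotide synthesis were lower in the same way. Rrm1, the large subunit of ribonucleotide reductase, read 1615, 1389 and 2548 in Th2-4th cells, against 4832, 5968 and 7809 in Th2-1st cells. Rrm2, its small subunit, read 4929, 4756 and 9347 in Th2-4th cells, against 10517, 12459 and 16914 in Th2-1st cells. Tyms, thymidylate synthase, read 119, 191 and 142 in Th2-4th cells, against 273, 323 and 426 in Th2-1st cells. For Rrm1 both culture ratios were under 0.5-fold (-1.62 unstimulated and -2.10 after anti-TCR). With the brightest probe sets Rrm2 was past the threshold only after anti-TCR (-1.39) and Tyms only unstimulated (-1.59). Another Rrm2 probe set was past it in both pairs (-1.43 and -2.35).

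With the brightest probe sets all 20 measured genes of S/G2 and mitosis were under 0.5-fold in Th2-4th cells in both pairs. Their median log2 ratios were -1.58 unstimulated and -2.24 after anti-TCR. Ccna2, cyclin A2, read 1105, 925 and 1850.0 in Th2-4th cells, against 3707, 4115 and 6044 in Th2-1st cells. Ccnb2, cyclin B2, read 984, 833 and 2754 in Th2-4th cells, against 3481, 3325 and 7627 in Th2-1st cells. Cdk1, the mitotic kinase that these cyclins switch on, read 1764, 1538 and 1919.8 in Th2-4th cells, against 8637, 8901 and 7659 in Th2-1st cells. In the anti-TCR pair Cdk1 was 5.79-fold lower in Th2-4th cells, Ccna2 4.45-fold and Ccnb2 3.99-fold. Ccnf, cyclin F, a substrate adaptor of a ubiquitin ligase, read 219, 188 and 450.1 in Th2-4th cells, against 455, 511 and 996 in Th2-1st cells, with a log2 ratio of -1.44 in that pair.

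Among the mitotic kinases and spindle checkpoint genes the cultures differed more after anti-TCR, with a median log2 ratio of -2.27, than unstimulated, with -1.63. Aurka, Aurora kinase A of the spindle poles, read 726, 571 and 832 in Th2-4th cells, against 2517, 3180.1 and 3129 in Th2-1st cells. Aurkb, the kinase of the chromosomal passenger complex, read 323, 241 and 797 in Th2-4th cells, against 1516, 1583 and 3503 in Th2-1st cells. Birc5, survivin, of the same complex, read 1169, 1028 and 3875 in Th2-4th cells, against 5849, 6436 and 11470.5 in Th2-1st cells. In the anti-TCR pair the log2 ratios were -2.48 for Aurka, -2.72 for Aurkb and -2.65 for Birc5. Plk1, Polo-like kinase 1, read 515, 387 and 628 in Th2-4th cells, against 1470.3, 1541 and 1887 in Th2-1st cells. Bub1, a kinase of the spindle checkpoint, read 656, 512 and 1416 in Th2-4th cells, against 2585, 2389 and 4385 in Th2-1st cells. Bub1b, the checkpoint protein BubR1, read 743, 461 and 857 in Th2-4th cells, against 2217, 2231 and 3324 in Th2-1st cells. No Th2-4th signal of these 3 genes reached the lowest Th2-1st signal. Ttk, the checkpoint kinase Mps1, read 224, 214 and 598 in Th2-4th cells, against 889, 889 and 1794 in Th2-1st cells, with log2 ratios of -1.58 unstimulated and -2.06 after anti-TCR.

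The kinesins and chromosome genes included the lowest culture ratio of all 48 genes. Kif20a, a kinesin of the central spindle, read 375, 299.9 and 1036 in Th2-4th cells, against 2005, 2054 and 3077 in Th2-1st cells. Kif23, another kinesin of the central spindle, read 358, 284 and 966 in Th2-4th cells, against 1982, 1693 and 2872 in Th2-1st cells. Kif11, the kinesin that pushes the spindle poles apart, read 545, 424 and 1147 in Th2-4th cells, against 1475, 1559 and 3056 in Th2-1st cells. In the anti-TCR pair Kif20a was at a log2 ratio of -2.78 (spread 0.57), the lowest, Kif23 at -2.58 and Kif11 at -1.88. Cenpa, the histone H3 variant of centromeres, read 1719.7, 2263 and 2616 in Th2-4th cells, against 6038, 7011 and 7959 in Th2-1st cells. Cenpe, a kinesin of the kinetochore, read 500.2, 411 and 989 in Th2-4th cells, against 2126, 1993 and 2514 in Th2-1st cells. Top2a, topoisomerase II alpha, read 3582, 3104 and 5918 in Th2-4th cells, against 14604, 14777 and 16394 in Th2-1st cells. With the brightest probe sets Cenpa differed about equally in both pairs (-1.61 and -1.63), and Cenpe and Top2a more after anti-TCR (-2.28 and -2.25) than unstimulated (-1.35 and -1.47). Another Cenpa probe set above the array median on all arrays gave -1.65 unstimulated and -0.32 after anti-TCR. The mean over the Cenpa probe sets was -0.72 after anti-TCR, short of the threshold. Mki67, the proliferation marker Ki-67, read 3293, 2713 and 6923 in Th2-4th cells, against 10157, 10489.9 and 14737 in Th2-1st cells. Cdc20, which activates the anaphase promoting complex, read 4748, 4552 and 4269 in Th2-4th cells, against 13156, 12898 and 12413 in Th2-1st cells. Ube2c, the ubiquitin-conjugating enzyme of that complex, read 2253, 2088 and 3054 in Th2-4th cells, against 14105, 12338 and 10066 in Th2-1st cells. The culture ratio of Mki67 was -1.09 unstimulated and -1.95 after anti-TCR, that of Cdc20 -1.54 and -1.503, and that of Ube2c -1.72 and -2.56.

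The G1 cyclins, their kinases and the E2F genes were split. Ccne1 and Ccne2, the E cyclins that start S phase, were lower in Th2-4th cells. Ccne1 read 494, 456 and 559.8 in Th2-4th cells, against 1331, 1113 and 1049.8 in Th2-1st cells. Ccne2 read 1123, 916 and 1105 in Th2-4th cells, against 2119.9, 1927 and 3229 in Th2-1st cells. Both cyclins had every Th2-4th signal below every Th2-1st signal. Ccne2 was past the threshold in both pairs (-1.55 unstimulated and -1.07 after anti-TCR), and the brightest Ccne1 probe set only after anti-TCR (-1.29). The other Ccne1 probe set was past it in both pairs (-1.75 and -1.20). Cdk2, the partner of the E cyclins, read 607, 520.1 and 895 in Th2-4th cells, against 904, 1051 and 2079 in Th2-1st cells. Cdk4, a partner of the D cyclins, read 988, 1407 and 1368 in Th2-4th cells, against 2811, 3089.6 and 3279 in Th2-1st cells. Both kinases were under 0.5-fold in both pairs, at -1.22 and -1.01 for Cdk2 and at -1.26 and -1.13 for Cdk4. Cdk6, the other D cyclin kinase, read 7391, 7092 and 4720.4 in Th2-4th cells, against 6970.4, 6060.4 and 5991 in Th2-1st cells, and its cultures overlapped. E2f1, an activating E2F, read 251, 179 and 275 in Th2-4th cells, against 272, 327 and 453 in Th2-1st cells. E2f2, another activating E2F, read 168, 173 and 1180.4 in Th2-4th cells, against 227, 363 and 2012 in Th2-1st cells. The signals of the cultures overlapped for both E2F genes, and the culture ratio passed the threshold for E2f2 after anti-TCR (-1.07) and for E2f1 in neither pair. The other E2f2 probe set was past the threshold in both pairs (-1.78 unstimulated and -1.05 after anti-TCR).

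Against this trend stood Cdkn1a, Cdkn1b and Ccnd2. Cdkn1a encodes the CDK inhibitor p21, a target of p53, and read 11202, 9586 and 8425 in Th2-4th cells, against 4964, 3207 and 2812 in Th2-1st cells. Every Th2-4th signal was above every Th2-1st signal, and the log2 ratio was 1.58 unstimulated (spread 0.62) and 1.58 after anti-TCR (spread 0.54), a 3-fold and 2.99-fold higher signal. Cdkn1b, the CDK inhibitor p27, which holds resting T cells in G1, read 876, 632 and 7550.2 in Th2-4th cells, against 282, 513 and 3004 in Th2-1st cells. It was 2.51-fold higher in Th2-4th cells when unstimulated, and at a log2 ratio of 0.30 after anti-TCR. Cdkn2c, the INK4 inhibitor p18, read 827, 591 and 1378 in Th2-4th cells, against 1027, 1076 and 2751 in Th2-1st cells, and at log2 ratios of -0.997 and -0.86 it was not past the threshold. After median centring of the arrays Cdkn2c was past 0.5-fold in both pairs, at -1.24 and -1.10. Ccnd2, cyclin D2, read 29725, 32711 and 16095 in Th2-4th cells, against 22698, 20840.1 and 5928 in Th2-1st cells, with a log2 ratio of 1.44 unstimulated and 0.65 after anti-TCR. Ccnd3, cyclin D3, read 1020.5, 713 and 2031 in Th2-4th cells, against 652, 458 and 3108 in Th2-1st cells. Ccnd1, cyclin D1, read 121, 139 and 74.8 in Th2-4th cells, against 93.0, 82.8 and 74.6 in Th2-1st cells, close to the array median on the unstimulated arrays. Neither cyclin D3 (-0.61 and 0.64) nor cyclin D1 (0.75 after anti-TCR) was past 2-fold between the cultures.

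**Figure D2:**
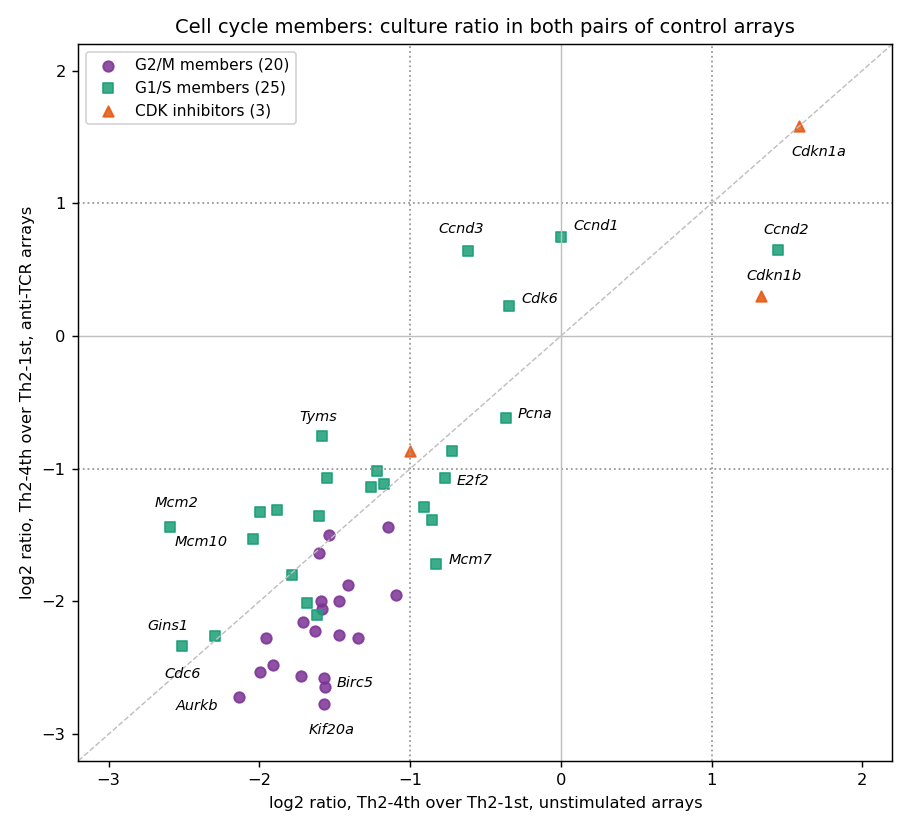
Log2 ratio of Th2-4th over Th2-1st signal of each cell cycle gene in the pair of unstimulated control arrays (x axis) and in the pair of anti-TCR control arrays (y axis), 1 array in each condition. Dotted lines mark 2-fold either way and the dashed line equal ratios. The 20 G2/M genes lie below -1 on both axes, and Cdkn1a is above 1 on both.

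Promoter sequences were looked up because these genes moved together. The RefSeq promoter table (mouse build GRCm38.p6, 250 bases before to 50 after the start of each gene) held 40 of the 48 genes. Only the first start listed for a gene was used, here and in the printed bases. For Cdkn1a, Cdkn2c, Ccnd3, E2f2 and Mcm7 the table listed 2 starts. Both strands were searched for 3 motifs known from cell cycle promoters. The E2F site, bound by E2F factors in genes of the G1/S transition, was spelled TTTCCCGC, TTTCGCGC, TTTGCCGC or TTTGGCGC. The CHR element, through which MuvB complexes act on G2/M genes, was spelled TTTGAA, and the CCAAT box, bound by NF-Y, was spelled CCAAT. Matches to 2 different motifs shared a base in 1 of the 40 promoters. Among the 17 G2/M genes listed there, 14 (82.4%) held a CHR element and a CCAAT box, as 7.12% of all 27025 genes in the table did. In 13 of the 17 (76.5%) a CHR element lay within 50 bases of the start, against 4.92% of all genes. Of 20 G1/S genes 8 (40.0%) held an E2F site, against 2.32% of all genes, and 2 (10.0%) a CHR element, against 18.1%. Among the 14453 genes on the arrays, 3.38% held an E2F site, 13.4% a CHR element and 5.37% a CHR element with a CCAAT box. Of the G2/M genes 1 (5.88%) held an E2F site. The CDK inhibitors in the table, 3 genes, held no E2F site and no CHR element around the start that was used. A match is a stretch of letters and was not tested as a binding site.

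**Figure D3:**
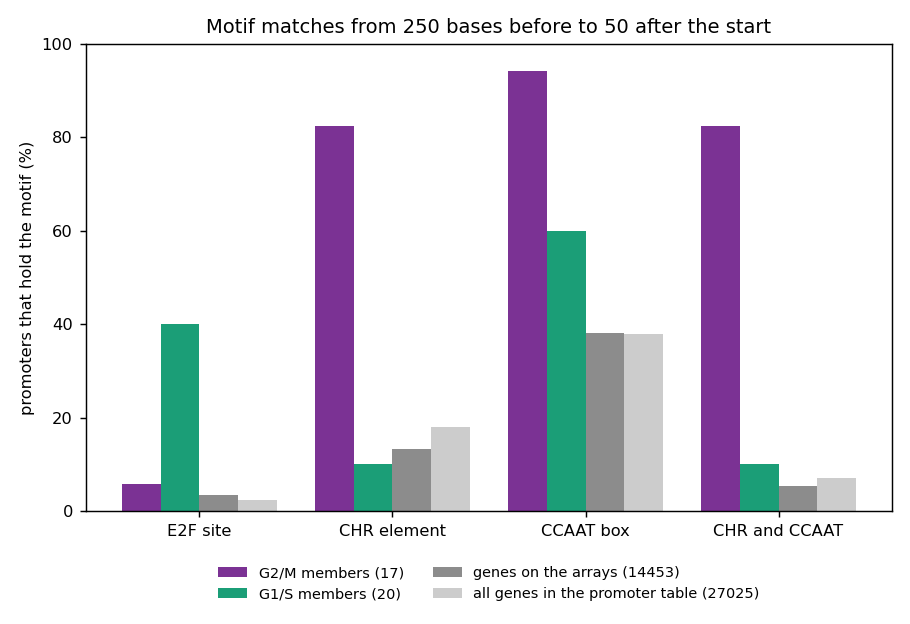
Share of promoters (percent, y axis) that hold each motif on either strand from 250 bases before to 50 after the start, for G2/M genes, G1/S genes, all genes on the arrays and all genes in the promoter table. The CHR element with a CCAAT box is in 82.4% of the 17 G2/M genes and in 10.0% of the 20 G1/S genes, and the E2F site in 5.88% and 40.0%.

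The 200 bases before the start are shown for the 3 G2/M genes with both a CHR element and a CCAAT box in that stretch, and the 3 G1/S genes with an E2F site in it, that had the lowest culture ratio after anti-TCR, and for Cdkn1a and Cdkn1b, the inhibitors that were higher in Th2-4th cells. Capitals mark every match to the 3 motifs, in either strand's reading. Ube2c is at chr2:164769729-164769928 (plus strand), Cdk1 at chr10:69352913-69353112 (minus), Top2a at chr11:99024190-99024389 (minus), Cdc6 at chr11:98907951-98908150 (plus), Mcm5 at chr8:75109309-75109508 (plus), Mcm7 at chr5:138171884-138172083 (minus), Cdkn1a at chr17:29090779-29090978 (plus) and Cdkn1b at chr6:134920201-134920400 (plus).
Ube2c: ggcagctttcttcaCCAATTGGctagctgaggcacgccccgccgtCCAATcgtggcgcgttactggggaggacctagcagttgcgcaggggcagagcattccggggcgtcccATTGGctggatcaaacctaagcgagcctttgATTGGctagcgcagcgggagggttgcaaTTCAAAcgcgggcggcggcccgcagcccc
Cdk1: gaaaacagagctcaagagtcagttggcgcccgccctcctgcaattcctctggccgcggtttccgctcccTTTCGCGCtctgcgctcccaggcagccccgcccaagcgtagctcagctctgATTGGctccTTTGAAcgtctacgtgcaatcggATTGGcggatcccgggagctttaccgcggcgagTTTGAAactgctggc
Top2a: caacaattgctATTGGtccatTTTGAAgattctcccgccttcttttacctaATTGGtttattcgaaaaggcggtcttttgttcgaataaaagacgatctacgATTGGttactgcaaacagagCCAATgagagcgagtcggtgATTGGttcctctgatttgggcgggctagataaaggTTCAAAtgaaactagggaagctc
Cdc6: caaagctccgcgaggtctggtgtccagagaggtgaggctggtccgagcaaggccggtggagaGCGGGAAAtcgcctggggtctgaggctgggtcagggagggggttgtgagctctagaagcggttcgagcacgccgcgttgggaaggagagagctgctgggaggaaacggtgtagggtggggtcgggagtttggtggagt
Mcm5: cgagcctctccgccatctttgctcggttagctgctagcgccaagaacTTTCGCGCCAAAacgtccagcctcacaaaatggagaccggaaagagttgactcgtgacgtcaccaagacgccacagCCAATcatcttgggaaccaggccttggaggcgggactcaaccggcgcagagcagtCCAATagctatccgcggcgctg
Mcm7: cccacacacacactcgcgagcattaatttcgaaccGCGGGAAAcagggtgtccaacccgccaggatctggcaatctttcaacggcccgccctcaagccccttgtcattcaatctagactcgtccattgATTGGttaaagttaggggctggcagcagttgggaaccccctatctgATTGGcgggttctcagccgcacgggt
Cdkn1a: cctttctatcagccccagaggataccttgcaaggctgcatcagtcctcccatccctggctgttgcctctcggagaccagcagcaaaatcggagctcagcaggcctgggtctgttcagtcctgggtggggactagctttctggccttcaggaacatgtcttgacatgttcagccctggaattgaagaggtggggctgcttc
Cdkn1b: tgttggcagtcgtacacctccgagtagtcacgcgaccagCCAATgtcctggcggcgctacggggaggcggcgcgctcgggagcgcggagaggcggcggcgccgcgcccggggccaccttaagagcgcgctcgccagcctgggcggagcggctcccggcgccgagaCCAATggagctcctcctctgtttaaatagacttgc
The CHR element of Ube2c began 29 bases before the start, and those of Cdk1 began 71 and 15 bases before it, with CCAAT boxes from 80 and 48 bases before it. Top2a had CHR elements from 179 and 23 bases before the start and 5 CCAAT boxes. The E2F site began 138 bases before the start in Cdc6, 165 in Mcm7 and 131 in Cdk1, the G2/M gene that also held one. Mcm5 had 2 overlapping E2F sites on opposite strands, from 153 and 149 bases before the start. Cdkn1a held none of the 3 motifs in these bases, which lie before the first of its 2 listed starts. Cdkn1b held 2 CCAAT boxes.

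Restimulation of the T cell receptor for 4 h moved fewer of the genes past 2-fold. In Th2-4th cells 16 of the 48 were under 0.5-fold after anti-TCR, where 21.6% of all genes were, and 1 was over 2-fold, where 18.7% of all genes were. In Th2-1st cells 7 were under 0.5-fold (16.9% of all genes) and 1 was over 2-fold (17.5%). The 7 of Th2-1st cells were all among the 16 of Th2-4th cells, and 9.27% of all genes were under 0.5-fold in both. The median log2 ratio was -0.68 in Th2-4th and -0.48 in Th2-1st cells, against -0.10 and -0.01 over all genes. Its spread among genes of like signal had a median of 0.91 in Th2-4th and 0.64 in Th2-1st cells, so that 3 and 5 of the 48 ratios were past 2 such SDs. The count of 7 in Th2-1st cells was 11 with the mean over the probe sets of a gene and 17 with the probe set whose ratio was farthest from 0. With that probe set 5 genes were over 2-fold in Th2-4th and 4 in Th2-1st cells. No share of all genes is given for these choices.

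Over both cultures together, 24 of the 48 genes were lower after anti-TCR at an adjusted p under 0.05 in the additive limma fit, where 14.1% of all genes were, and Ccnd2 was higher, where 8.99% of all genes were. They included 5 of 7 mitotic kinases and checkpoint genes and 4 of 12 genes of licensing and the fork. As with the cultures, no gene passed with 1 common prior variance, and 19 of the 48 were then lower at an unadjusted p under 0.05.

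Of the 3 CDK inhibitors, Cdkn1b and Cdkn2c were under 0.5-fold after anti-TCR in both cultures and Cdkn1a was past 2-fold in neither. Cdkn1b (p27), with the lowest ratio of the 48 genes in Th2-4th cells, read 632 after anti-TCR and 7550.2 unstimulated in Th2-4th cells, and 513 after anti-TCR and 3004 unstimulated in Th2-1st cells. That made it 11.9-fold lower after anti-TCR in Th2-4th and 5.85-fold lower in Th2-1st cells, with log2 ratios of -3.58 (spread 0.95) and -2.55 (spread 0.77). Cdkn2c (p18) was lower as well, at -1.22 and -1.35, whereas Cdkn1a (p21) read 9586 after anti-TCR and 8425 unstimulated in Th2-4th cells, and 3207 after anti-TCR and 2812 unstimulated in Th2-1st cells. The log2 ratio of Cdkn1a was 0.19 in Th2-4th and 0.19 in Th2-1st cells.

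The D cyclins went in opposite directions. Ccnd2 was the gene over 2-fold in both cultures, at 32711 after anti-TCR and 16095 unstimulated in Th2-4th cells (log2 ratio 1.02, spread 0.45), and at 20840.1 after anti-TCR and 5928 unstimulated in Th2-1st cells (1.81, spread 0.42). Under quantile normalization its ratio in Th2-4th cells was 0.73, below 2-fold. Ccnd3 was lower after anti-TCR, at 713 against 2031 unstimulated in Th2-4th cells and at 458 against 3108 unstimulated in Th2-1st cells, with log2 ratios of -1.51 and -2.76. E2f2 was lower too, at 173 after anti-TCR against 1180.4 unstimulated in Th2-4th cells and at 363 against 2012 unstimulated in Th2-1st cells (-2.77 and -2.47), while E2f1 was at -0.62 and -0.47.

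More of the mitotic genes were under 0.5-fold after anti-TCR in Th2-4th than in Th2-1st cells. Of the 20 G2/M genes 11 were under 0.5-fold after anti-TCR in Th2-4th cells and 3 (Ccnb2, Aurkb and Ttk) in Th2-1st cells, with median log2 ratios of -1.26 and -0.56. The log2 ratio was lower in Th2-4th than in Th2-1st cells for 19 of the 20, with a median difference of -0.55, where it was lower for 52.8% of all genes. Birc5 was at -1.91 in Th2-4th and -0.83 in Th2-1st cells, Kif20a at -1.79 and -0.58, and Kif23 at -1.77 and -0.76. Cdc20 was the exception, at 0.09 and 0.06. The 25 G1/S genes did not share this, since the log2 ratio was lower in Th2-4th cells for 10 of them. Mcm2 was at 0.53 in Th2-4th and -0.63 in Th2-1st cells and Mcm10 at 0.57 and 0.06, but Mcm7 at -1.25 and -0.36. Other probe sets above the array median on all arrays showed less contrast. Mcm2 was then at -0.33 in Th2-4th and -0.46 in Th2-1st cells, and Mcm7 at -1.23 and -0.99, -0.82 and -0.84, or -0.74 and -1.04. These differences of response come from the same 4 control arrays as the culture ratios above and are the difference of those ratios, so they are no separate evidence, and they were not tested.

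**Figure D4:**
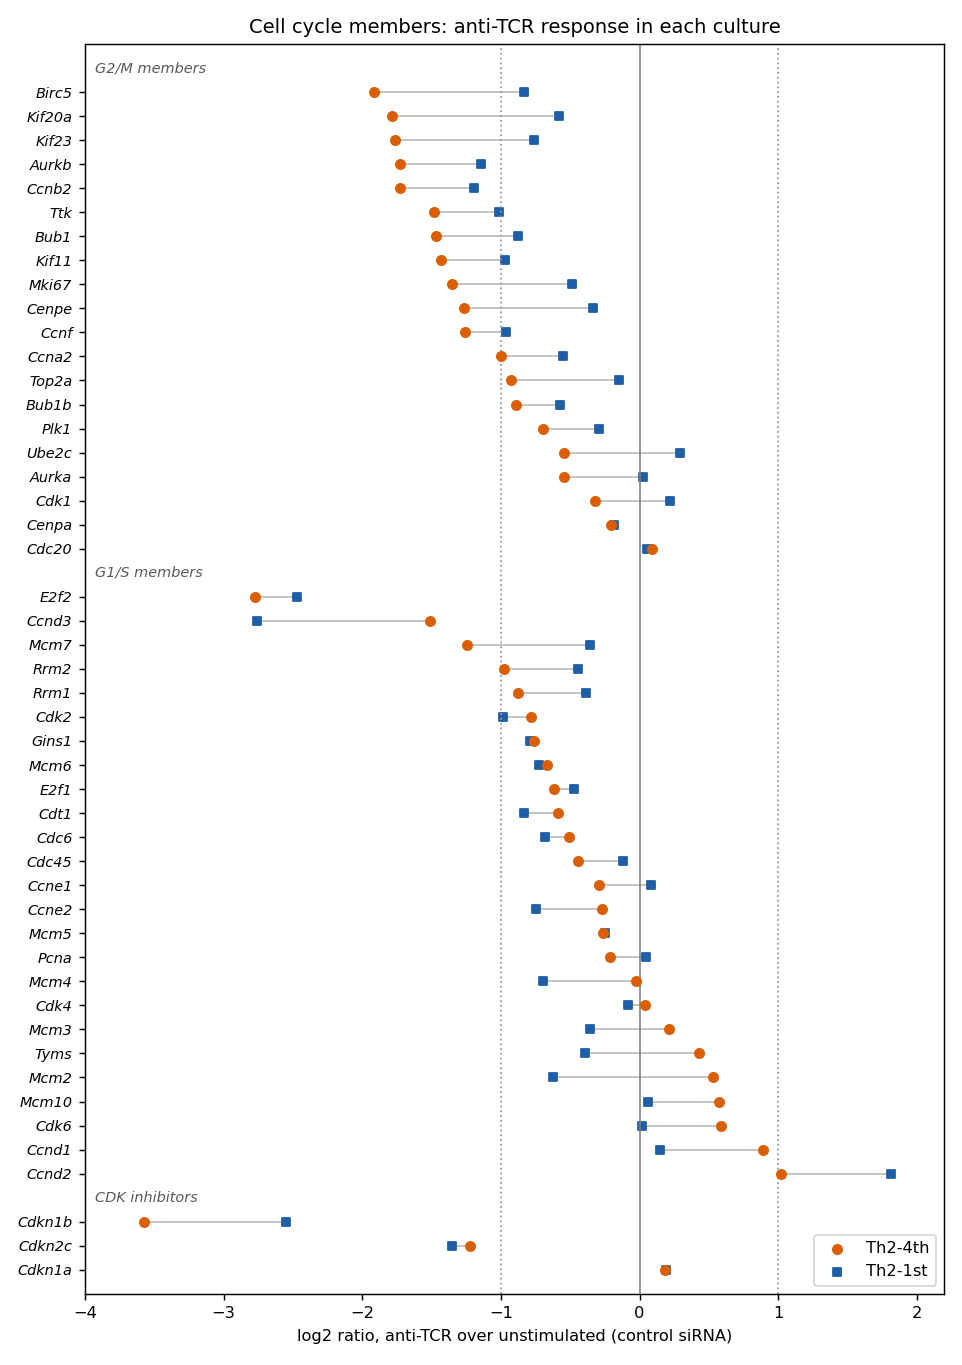
Log2 ratio of anti-TCR over unstimulated control siRNA signal for each cell cycle gene, Th2-4th cells as orange circles and Th2-1st cells as blue squares, 1 array in each condition, sorted by the Th2-4th ratio. Dotted lines mark 2-fold either way. The Th2-4th ratio is left of the Th2-1st ratio for 19 of the 20 G2/M genes and for 10 of the 25 G1/S genes.

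Across the 4 control arrays, 36 of the 48 genes had their lowest signal on the Th2-4th anti-TCR array, where 23.5% of all genes had theirs, and 36 had their highest on the unstimulated Th2-1st array, where 18.1% of all genes did.

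GATA3 siRNA moved none of the 48 genes past 2-fold in either culture. With the mean over the probe sets of a gene 2 were over 2-fold in each culture, and Cdkn1b was under 0.5-fold in Th2-1st cells (-1.03). With the probe set farthest from 0, often a dim one, 8 were over 2-fold in Th2-4th and 6 in Th2-1st cells, and 3 were under 0.5-fold in Th2-1st cells. No share of all genes is given for these choices of probe set. With the brightest probe sets the siRNA ratio in Th2-4th cells was over 2-fold for 10.6% of all genes and under 0.5-fold for 10.6%. In Th2-1st cells these shares were 13.3% and 7.49%. Many genes counted there are dim, and among genes whose higher signal of the pair was above the array median, as all 48 were, the shares were 3.0% and 3.49% in Th2-4th cells and 4.42% and 2.26% in Th2-1st cells. The median log2 ratio of the 48 genes was 0.22 in Th2-4th and -0.04 in Th2-1st cells, against 0.01 and 0.05 over all genes. The ratio was above 0 for 40 of the 48 in Th2-4th cells and for 18 in Th2-1st cells, against 50.7% and 56.0% of all genes. For 24 of the 48 genes it was above 0 in Th2-4th and below 0 in Th2-1st cells, as it was for 3640 of all 18194 genes. The spread among genes of like signal had a median of 0.29 in Th2-4th and 0.16 in Th2-1st cells, and 2 and 7 of the 48 ratios were past 2 such SDs. Over both cultures together 0 of the 48 genes passed an adjusted p of 0.05 in the additive limma fit and 1, Cdkn1a, was higher at an unadjusted p under 0.05, while 7 of all 18194 genes (0.0385%) passed, all lower.

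The ratios farthest from 0 came from genes of several roles. Cdkn1b (p27) read 876 with GATA3 siRNA and 632 with control siRNA in Th2-4th cells, a log2 ratio of 0.47, and 282 with GATA3 siRNA and 513 with control siRNA in Th2-1st cells, a log2 ratio of -0.86. The direction of p27 thus differed between the cultures with this probe set, which was not tested, and after median centring its Th2-1st ratio was past 0.5-fold, at -1.03. A dimmer Cdkn1b probe set, below the array median on these arrays, was lower in both, at -0.21 in Th2-4th and -1.20 in Th2-1st cells. Cdkn1a (p21) read 11202 with GATA3 siRNA and 9586 with control siRNA in Th2-4th cells (0.22), and 4964 with GATA3 siRNA and 3207 with control siRNA in Th2-1st cells (0.63, spread 0.15), the highest ratio of that culture. Ccnd3 was higher with GATA3 siRNA by about the same amount in both, at 1020.5 against 713 with control siRNA in Th2-4th cells and 652 against 458 with control siRNA in Th2-1st cells (0.52 and 0.51). E2f2 was at -0.04 in Th2-4th and -0.68 in Th2-1st cells, and E2f1 at 0.48 and -0.26. Other probe sets above the array median on all arrays reversed this order, with E2f2 at -0.71 in Th2-4th and -0.31 in Th2-1st cells, and E2f1 at -0.19 and 0.09. In Th2-4th cells Bub1b had the highest ratio, 743 with GATA3 siRNA against 461 with control siRNA (0.69), next to Cdc45 (0.64), and Tyms the lowest (-0.69), next to Cdk4 (-0.51).

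**Figure D5:**
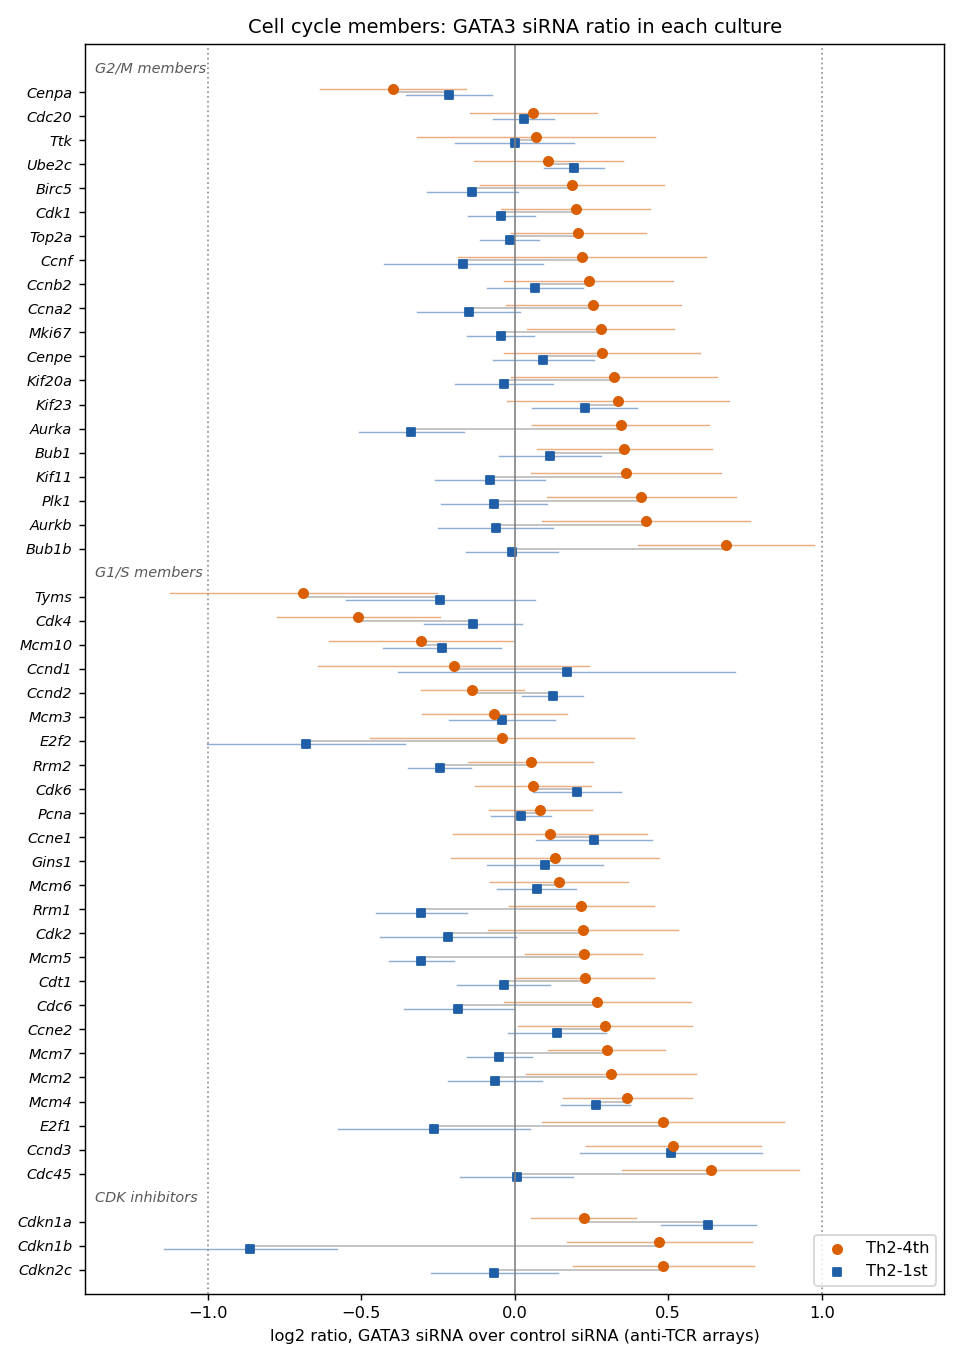
Log2 ratio of GATA3 siRNA over control siRNA signal on the anti-TCR arrays for each cell cycle gene, Th2-4th cells as orange circles and Th2-1st cells as blue squares, 1 array in each condition. Thin lines show the robust SD of the ratio among genes of like signal, and dotted lines mark 2-fold either way. No gene is past a dotted line, and 40 of the 48 Th2-4th points lie right of 0.

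The genes nearest to the threshold show how counts depend on it. In the unstimulated culture pair Mki67 was just past 0.5-fold (-1.09) and Cdkn2c just short of it (-0.997), and in the anti-TCR pair Cdk2 was just past (-1.01) and E2f1 short (-0.87). After anti-TCR in Th2-4th cells Cdkn2c was past it (-1.22) and Ccna2 at -0.9995 just short, and in Th2-1st cells Ttk was past (-1.01) and Cdk2 short (-0.98). For 25 of the 48 genes at least 2 probe sets were above the array median on all arrays, and of these 19 were past 2-fold in the unstimulated culture pair, where the other probe sets had the same direction in all 19 and were past 2-fold too in 15. In the anti-TCR pair these counts were 22, 22 and 20.

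Further genes of the same pathways, from lists of genes not among the 49, were described in the same way. Of 49 further mitosis genes, all measured, 40 were under 0.5-fold in Th2-4th cells unstimulated and 45 after anti-TCR, with 1 and 0 over 2-fold. The shares of all genes, for this list and those below, were 12.3% and 12.7% under 0.5-fold and 19.5% and 17.2% over 2-fold. Nek2, a centrosome kinase, was at a log2 ratio of -2.07 unstimulated, and after anti-TCR Spc24 and Cenpi of the kinetochore were at -2.67 and -2.61, the spindle kinesin Kif2c at -2.56, the condensin subunit Ncapg at -2.55 and the spindle protein Hmmr at -2.43. Of 33 further replication genes 32 were measured, of which 23 were under 0.5-fold unstimulated and 27 after anti-TCR, and none was over 2-fold in either pair. Orc1, a subunit of the origin recognition complex, was at -2.01 unstimulated. Of 15 further genes of nucleotide supply 12 were measured, with 10 under 0.5-fold unstimulated and 6 after anti-TCR. Shmt1, a folate enzyme that supplies thymidylate synthesis, read 1316 after anti-TCR against 119 unstimulated in Th2-4th cells, and 3459 against 609 unstimulated in Th2-1st cells.

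The further regulators, 50 measured of 51, were split in both directions. In unstimulated Th2-4th cells 13 (26%) were under 0.5-fold, where 12.3% of all genes were, and 11 (22%) over 2-fold, where 19.5% of all genes were. After anti-TCR 11 (22%) were under 0.5-fold, where 12.7% of all genes were, and 7 (14%) over 2-fold, where 17.2% were, so the shares over 2-fold were near those of all genes. The CDK inhibitors on this list differed among themselves. The INK4 inhibitor Cdkn2b (p15) read 1891 in Th2-4th against 275 in Th2-1st cells after anti-TCR, and Cdkn2a, the INK4a and ARF locus, 1160.1 against 299. Cdkn3, a phosphatase that acts on CDKs, was at log2 ratios of -1.64 unstimulated and -1.59 after anti-TCR, the INK4 inhibitor Cdkn2d (p19) at -0.37 and 0.09, and the Cip/Kip inhibitor Cdkn1c (p57) at -0.36 and -0.01. Zmat3, a p53 target, read 1803 in Th2-4th against 332 in Th2-1st cells after anti-TCR, and Btg2, another p53 target that slows division, 6352 against 1431. Its relative Btg1 was at 1.59 unstimulated. Foxo3, a transcription factor of resting cells, read 4923 in Th2-4th against 1201 in Th2-1st cells unstimulated, but 439 against 536 after anti-TCR. Sesn1, a further p53 target, likewise read 3709 in Th2-4th against 1274 in Th2-1st cells unstimulated, and 328 against 379 after anti-TCR. Myc, which drives growth and division, was lower unstimulated, at 299 in Th2-4th against 1841 in Th2-1st cells, and read 5218 and 4939 after anti-TCR. Klf2, a factor that keeps T cells quiescent, was lower in Th2-4th cells unstimulated (-2.95) and higher after anti-TCR (1.47), at signals of 139 in Th2-4th and 50.2 in Th2-1st cells that lay around the array median.

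After anti-TCR, 19 of the 50 further regulators (38%) were under 0.5-fold in Th2-4th cells, where 21.6% of all genes were, and 17 (34%) in Th2-1st cells, where 16.9% of all genes were. Over 2-fold were 7 (14%) in Th2-4th and 6 (12%) in Th2-1st cells, against 18.7% and 17.5% of all genes. Ccng2, a cyclin of resting cells, was at -3.10 in Th2-4th and -3.33 in Th2-1st cells, and Rbl2, the retinoblastoma relative p130, at -2.67 and -2.78. The Cdc25b phosphatase, which switches Cdk1 on, was at -2.72 and -1.999. In Th2-4th cells Sesn1, a stress gene under p53, was at -3.50 and Foxo3 at -3.49, and in Th2-1st cells Cdkn2d was at -2.09. Genes known from resting T cells did not move as 1 group: Klf2 was at 0.36 in Th2-4th and -4.07 in Th2-1st cells, Btg1 at 0.50 and 1.14, and Foxo1, a relative of Foxo3, at 0.40 and 0.01. Higher were Gadd45b (3.86 and 4.20) and Gadd45g (1.999 and 2.23), growth arrest and stress genes, and Cdkn2b (2.56 and 1.94), with Myc at 4.12 in Th2-4th cells and E2f5, a repressive E2F, at 1.496 in Th2-1st cells. With GATA3 siRNA in Th2-4th cells, Foxo3 read 939.9 against 439 with control siRNA, and Rfc3, a subunit of the clamp loader, 1153 against 546, both over 2-fold.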

How the data were processed

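RNA of the 6 conditions was labelled with biotin and hybridized to Affymetrix mouse genome arrays, 1 array per condition. The authors deposited linear intensity values, 1 for each probe set of an array, from the Affymetrix Expression Console. The sources used here do not give its version or its signal algorithm. The deposited intensity values of every array average 500.0 once the bottom and top 2% are trimmed, so the arrays had been scaled to a common mean. Of 45101 probe sets, 34958 named 1 gene, 932 several and 9211 none in the platform annotation, and 34754 of the first matched a RefSeq gene, which gave 18194 genes.

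Ratios of array pairs were computed for 6 comparisons. Ratios under 0.5 or over 2 were counted, with no filter on low signals and no p-value, since each is 1 pair of arrays. An additive model of culture and treatment was fitted to the log2 signals of all genes with limma (eBayes with a variance trend on signal) and adjusted by Benjamini-Hochberg; it was chosen after the data were seen and assumes the same culture difference under each treatment. The number of arrays limits the precision. The alternatives averaged the probe sets of each gene, took the probe set with the largest ratio, dropped cross-hybridising probe sets, centred the arrays on their medians, quantile normalized them, or left out or raised signals below the array median. The counts and the fit were tested on simulated data with known changes. The members and the further lists were chosen with earlier results of these data known. All members may be named, with signals for those past 2-fold, for D cyclins and CDK inhibitors and for the brightest of each role, and from the further lists up to 5 genes per direction and comparison with the largest ratio and at least 1 signal of the pair above the array median. Promoter sequences were taken from RefSeq (GRCm38.p6). R 4.3.3, limma 3.58.1, Python 3.11.15, numpy 2.4.6 and pandas 2.3.3 were used, and matplotlib 3.10.9 drew the plots.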

Additional observations from a re-analysis of the deposited data

Results flagged for a closer look

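For 3 genes the GATA3 siRNA ratio of the brightest probe set ran in opposite directions in the cultures. Each ratio was past the spread among genes of like signal. Each culture has 1 array per condition, so these differences were not tested. No share of all genes that meet this rule is given, so the 3 genes show no excess over other genes. Cdkn1b, the CDK inhibitor p27, had a log2 ratio of 0.471 in Th2-4th cells (spread 0.302) and -0.862 in Th2-1st cells (spread 0.282), a difference of 1.333. Aurka, Aurora kinase A, was at 0.346 in Th2-4th cells (spread 0.289) and -0.337 in Th2-1st cells (spread 0.171), a difference of 0.683. Mcm5, a subunit of the replicative helicase, was at 0.224 in Th2-4th cells (spread 0.191) and -0.305 in Th2-1st cells (spread 0.106), a difference of 0.529. Other probe sets did not repeat these differences. Dimmer ones, below the array median on these arrays, gave -0.209 in Th2-4th and -1.197 in Th2-1st cells for Cdkn1b, and 1.513 and 1.454 for Aurka. The other Mcm5 probe set above the array median on all arrays gave 0.152 and -0.039.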

How the results depend on the processing

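Over 7 alternatives, 111 of 126 recomputed medians and counts stayed within their spread or within 1.5 times the main count. The 102 ratios of single genes past 2-fold gave 710 recomputed values, of which 681 stayed within their spread. Leaving out or raising signals below the array median could change none of these values, because all 48 genes lay above it on all 6 arrays. No count of culture ratios under 0.5-fold moved by over 1.5 times. The probe set with the largest ratio, often a dim one, gave 4 genes over 2-fold and 17 under 0.5-fold after anti-TCR in Th2-1st cells and 5 over 2-fold in Th2-4th cells. It gave 5 genes over 2-fold in the unstimulated and 3 in the anti-TCR culture pair, and with GATA3 siRNA 8 over 2-fold in Th2-4th cells, and 6 over 2-fold and 3 under 0.5-fold in Th2-1st cells. With this choice the culture ratio of Mcm10 unstimulated turned to 2.47, on a probe set below the array median. The mean over probe sets gave 11 genes under 0.5-fold after anti-TCR in Th2-1st cells, and with GATA3 siRNA 2 over 2-fold in each culture and 1 under 0.5-fold in Th2-1st cells. Quantile normalization left 0 genes over 2-fold after anti-TCR in Th2-4th cells. Median centring moved the GATA3 siRNA median in Th2-1st cells to -0.21, with 1 gene, Cdkn1b, under 0.5-fold; it shifted the median of all genes by -0.25 and -0.24 in the culture pairs and by -0.17 in the Th2-1st siRNA pair. The cause of these moves was not tested. The additive limma fit, which pairs the cultures by treatment, was added after the data were seen, with its own alternatives. Without a trend of variance on signal it called 0 genes lower and 0 higher between the cultures, and 0 and 0 after anti-TCR. Leaving out 1 treatment pair at a time gave 38 to 40 genes lower and 1 to 4 higher in Th2-4th cells. Under its other 6 alternatives 35 to 41 genes were lower in Th2-4th cells and 22 to 27 after anti-TCR, and with GATA3 siRNA 0 of the 48 genes passed in any. No paired analysis was possible for the siRNA and anti-TCR ratios within 1 culture, because each is a single pair of arrays. Without Aurkb, whose probe sets can all cross-hybridise, 47 genes could be measured when such probe sets were left out. With 1 array per condition and no detection calls, low signals such as those of Ccnd1 have no known precision.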
